A study of Zea mays with 24 samples.

Results

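The interaction of genotype and drought was measured by RNA-seq in 8 maize leaf libraries out of 24 in the series. The 8 are all libraries of the inbred line W22 and of the *zmnf-ya1* mutant, chosen by their labels, with 2 libraries in each of 4 groups: W22 normal, W22 drought, *zmnf-ya1* normal and *zmnf-ya1* drought. All plants were grown to the V4 stage in pots in a greenhouse, and the drought groups were then exposed to drought stress for 5 d, with no other treatment stated for any group. The mutant is 1 allele, m67 from the UniformMu population, with a *Mu* transposon in *ZmNF-YA1* (GRMZM2G000686), and it is homozygous in the W22 background. No second allele was sequenced, so *zmnf-ya1* here means this line. Leaves of 3 to 4 plants were pooled for each library, and the sources differ on whether the top expanded leaf or several top leaves were taken. The interaction is the drought response in *zmnf-ya1* (log2 of drought over normal) minus the drought response in W22, so a negative value means a lower response in the mutant and 1 unit is a factor of 2.

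NF-Y is a trimer of 1 NF-YA, 1 NF-YB and 1 NF-YC protein that binds the CCAAT element of promoters, and NF-YA is the subunit that recognizes this sequence. Drought makes leaves close their stomata, which abscisic acid (ABA) signals, accumulate protective proteins and sugars, and adjust photosynthesis, while jasmonic acid (JA) is the hormone of wounding and defense, made from linolenic acid through lipoxygenases and sensed through JAZ repressors that hold back MYC transcription factors. An interaction asks whether a gene answered drought differently in the 2 genotypes, which 2 separate lists of drought genes cannot show.

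Levels are counts scaled to a common library total (CPM) after TMM, a factor per library that sets most genes level, and 24159 of 33789 genes had enough counts to be tested. A gene is called where the absolute log2 value was above 1 and the adjusted P of edgeR's quasi-likelihood test was below 0.05. An exact permutation test of 1 gene (two-sided) on 2 against 2 libraries has 0.333 as its smallest P, so P values come from the model fitted across all genes and measure the spread between pooled samples. Totals were 20863136 to 21178202 expected counts per library. TMM factors were 1.13 in both unstressed W22 libraries and 0.834 and 0.884 in unstressed *zmnf-ya1*, against 1.00 to 1.03 in the 4 drought libraries. With library size alone the median interaction of all genes moved from -0.05 to 0.31, a shift of 0.37, and changes are given relative to the TMM level. Markers of leaf cells were high in all 8 libraries: 9 mesophyll genes, among them phosphoenolpyruvate carboxylase and pyruvate, phosphate dikinase, summed to 42338 to 56333 CPM, and 5 bundle sheath genes to 12584 to 17510.5 CPM. Of 11 genes matched to root or seed markers, 3 were tested and summed to 35.7 to 56.9 CPM, nearly all from 1 endoplasmic reticulum membrane protein named after zein. Pooled leaf RNA cannot tell fewer cells of a type from less RNA per cell.

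The interaction passed the test in 3417 genes, 14.1% of those tested, with 2180 lower (9.02%) and 1237 higher (5.12%). In the same fit drought raised 4238 genes (17.5%) and lowered 3467 (14.4%) in W22, and raised 2927 (12.1%) and lowered 3180 (13.2%) in *zmnf-ya1*. Of the 3417, 1706 (7.06% of genes tested) had a weaker response in the mutant: they were called for drought in W22, and in *zmnf-ya1* they were not called or were called with a smaller change. A further 824 (3.41%) had a stronger response by the mirror rule, 129 (0.534%) were called in opposite directions, and 758 (3.14%) were called for drought in neither genotype. Most of the weaker class were drought-induced genes. Of its members 1236 were induced in W22, with a median drought response of 2.23 there and 0.42 in *zmnf-ya1*, and 361 of them were still called as induced in the mutant. The other 470 were repressed in W22, with medians of -1.51 and -0.05. In the stronger class 507 genes were called as repressed in the mutant (medians -0.17 in W22 and -1.92 in *zmnf-ya1*), 85 of them in W22 too. The other 317 were called as induced in the mutant (-0.10 and 1.57), 36 of them in W22 too. Members not called in W22 could change there in either direction.

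**Figure D1:**
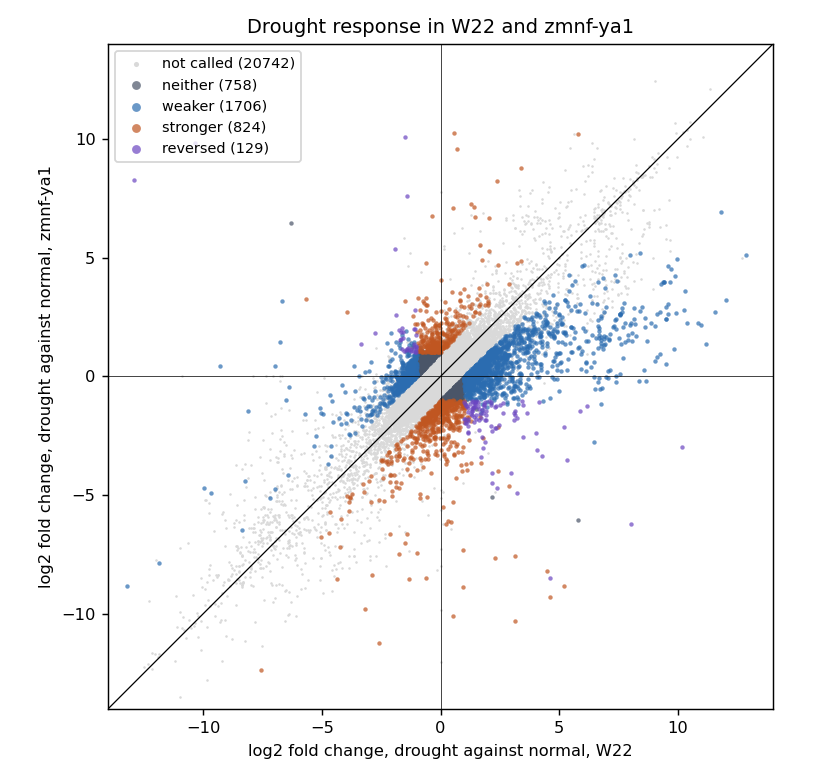
Drought response of each tested gene in W22 (x axis, log2 fold change) and in *zmnf-ya1* (y axis, log2 fold change), colored by class, with the line of equal response. The 1706 weaker genes lie mostly below the line at positive W22 values, 824 stronger genes lie along the vertical axis, and 129 reversed genes lie in the quadrants of opposite sign.

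The genotypes differed mainly in unstressed leaves. Between *zmnf-ya1* and W22, 2030 genes were higher (8.40%) and 1610 lower (6.66%) in the mutant under normal conditions, and 195 (0.807%) and 586 (2.43%) under drought. The interaction is the difference between these 2 comparisons and shares all libraries with them, so the values are set side by side only. The 1236 genes with a weaker induction had a median genotype difference of 1.36 without stress and of -0.34 under drought. For the 470 genes with a weaker repression these medians were -1.24 and 0.22. Genes of the stronger class repressed in the mutant had 1.04 and -0.77, and those induced in the mutant had -1.47 and 0.17. In all 4 of these sets the larger difference thus lay between the unstressed groups.

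The level of a gene also moved with the length of its transcript, and this bears on several lists below. Weighted by counts, the mean transcript length was 1769 and 1766 nucleotides (nt) in W22 without stress, 1685 and 1684 in W22 under drought, 1620 and 1650 in the mutant without stress, and 1697 and 1695 in the mutant under drought. The unstressed groups of the 2 genotypes stood on opposite sides of the drought libraries. From the shortest to the longest of 10 bins of genes by length, the median interaction went from -0.38 to 0.60. Calls of a lower interaction went from 14.7% to 2.44% of genes, and calls of a higher one from 2.56% to 21.7%. The genotype difference under drought stayed between -0.02 and 0.02 in all 10 bins. A fit with the trend on length removed from each library, added after the trend had been seen, called 2125 genes lower (8.80%) and 689 higher (2.85%). Of its 2814 calls 2410 were shared with the unadjusted fit in the same direction. It gave 1490 weaker, 725 stronger and 122 reversed genes and 477 called in neither genotype. With library size alone there were 1278 lower (5.29%) and 3057 higher calls (12.7%), and limma on log2(FPKM + 1) called 733 lower (3.03%) and 1062 higher (4.40%), so the direction that holds most calls depends on the scaling. The part of transcript length or of RNA composition in the calls was not tested. Counts in the lists below stand against the shares of all genes called. These are 9.02% lower and 5.12% higher with TMM, 5.29% and 12.7% with library size alone, and 8.80% and 2.85% length-adjusted.

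**Figure D2:**
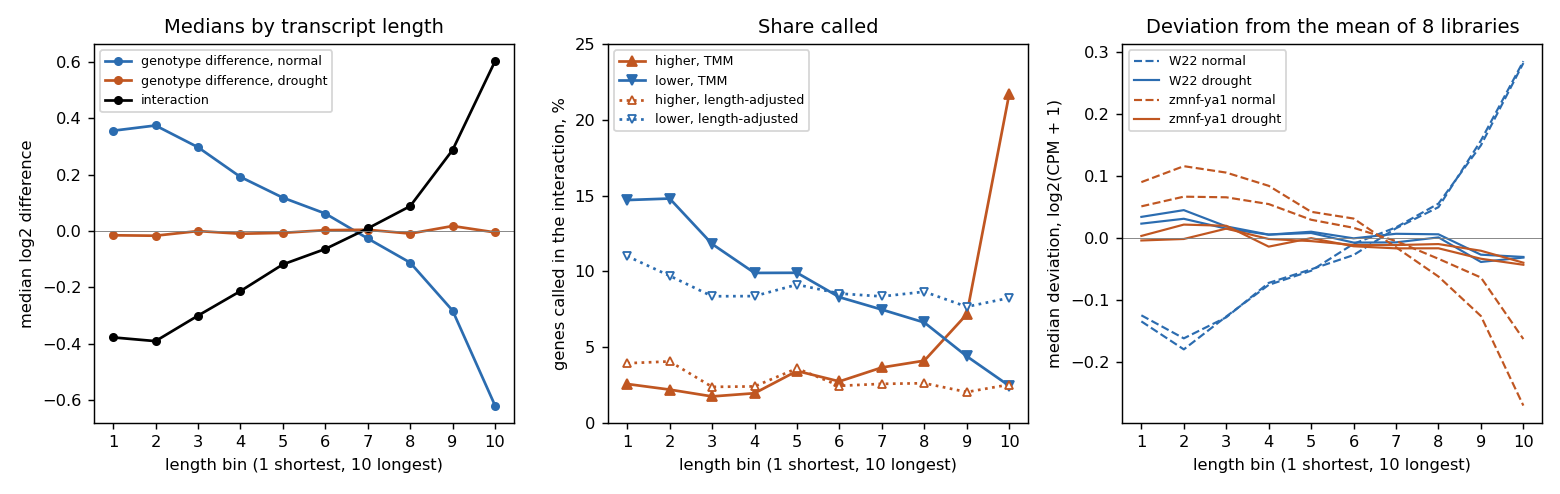
Genes in 10 bins by transcript length (x axis, 1 shortest): medians of the log2 genotype differences and of the interaction (left), percent of genes called in the interaction with TMM and length-adjusted (middle), and median deviation of each library from the mean of the 8 on log2(CPM + 1) (right, 2 lines per group). The median interaction rises from -0.38 to 0.60, and the unstressed W22 and unstressed *zmnf-ya1* lines run in opposite directions.

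**Figure D3:**
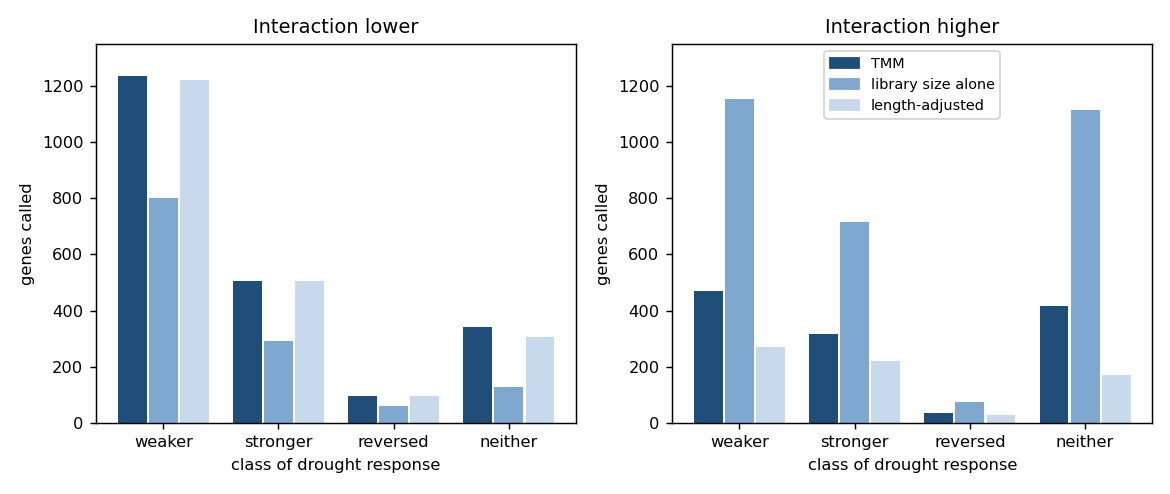
Genes called in the interaction (y axis) by class of drought response, for lower (left) and higher (right) interactions, with TMM, with library size alone and length-adjusted. The weaker class with a lower interaction holds 1236, 801 and 1221 genes in these settings, and that with a higher interaction 470, 1153 and 269.

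*ZmNF-YA1* itself had 11.8 and 12.6 CPM in W22 without stress, 5.67 and 6.72 in W22 under drought, 5.17 and 5.72 in the mutant without stress, and 5.20 and 4.83 in the mutant under drought. Its change under drought in W22 was -0.98 on the log2 scale (SE 0.11, adjusted P = 4.34e-06), just short of the fold limit, whereas the change in the mutant was -0.12 (SE 0.14, adjusted P = 0.483). The interaction was 0.86 (SE 0.18, adjusted P = 0.00212), below the fold limit, and it reached 1.22 and a call with library size alone. The paper reports that polyethylene glycol (PEG), an osmotic stress unlike the drought here, induced *ZmNF-YA1* in seedling leaves. It also reports no *ZmNF-YA1* transcripts in this mutant line, with levels measured in leaves with or without PEG. Counts remained in the mutant libraries here, which come from other samples. These counts do not separate transcript before the insertion from transcript after it. *ZmNF-YA7* (GRMZM2G040349), another NF-YA gene, stayed between 1.04 and 2.16 CPM in the 8 libraries, with an interaction of 0.18 (SE 0.37, adjusted P = 0.744). *ZmNF-YC17* (GRMZM2G311316), the NF-YC partner in the study, had 5.42 and 5.16 CPM in W22 without stress, 1.03 and 2.13 in W22 under drought, 3.69 and 4.71 in the mutant without stress, and 0.662 and 1.18 in the mutant under drought. Drought lowered it in both genotypes, by log2 changes of -1.74 and -2.18, and the interaction was -0.45 (SE 0.43, adjusted P = 0.457). Among 16 NF-Y subunit genes tested, 3 were called lower and 0 higher, 18.8% against 9.02% of all genes, and the list's median of -0.34 was 0.03 with library size alone, where 1 was lower. The 2 named by the rule both encode NF-YB-3-type subunits. GRMZM2G384528 had 17.7 and 20.9 CPM in W22 without stress, 45.2 and 43.9 in W22 under drought, 47.7 and 44.8 in the mutant without stress, and 35.5 and 32.8 in the mutant under drought, so the drought induction of W22 had no counterpart in the mutant (interaction -1.64 (SE 0.12, adjusted P = 2.79e-07)). GRMZM2G180947 rose by 2.08 in W22 and changed by 0.75 in *zmnf-ya1*, under the fold limit, and its interaction of -1.34 was -0.97 with library size alone.

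Genes of the JA synthesis list, matched by the words of their descriptions, had mostly lower interactions. The description lipoxygenase does not say whether a member acts in JA synthesis. Of 18 genes tested, 11 (61.1%) were called lower and 0 higher, and the median interaction was -1.23 against -0.05 over all genes. Genes of this list are long, with a median of 2791 nt against 1592 nt, and the length-adjusted fit called 13 lower, with a median of -1.63. Scaled by library size alone, 7 were lower, with a median of -0.85. Summed over the list the level was 5939.5 and 6104 CPM in W22 without stress, 13858 and 13812 in W22 under drought, 12149 and 11991 in the mutant without stress, and 12431 and 13142 in the mutant under drought. The sum, to which the abundant members contribute most, was lowest in unstressed W22. Over single genes drought raised 7 and lowered 2 in W22 and raised 2 and lowered 6 in the mutant, and the median genotype difference under drought was -0.26. A lipoxygenase, GRMZM2G156861 (*lox1*), had 6.74 and 6.51 CPM in W22 without stress, 51.4 and 51.3 in W22 under drought, 68.4 and 64.8 in the mutant without stress, and 45.4 and 42.0 in the mutant under drought. Its W22 libraries rose by 2.95 under drought and its mutant libraries changed by -0.61, under the fold limit, giving an interaction of -3.56 (SE 0.10, adjusted P = 6.10e-11). The second lipoxygenase named, GRMZM2G102760 (*lox5*), went another way. It had 20.8 and 21.9 CPM in W22 without stress, 18.8 and 17.4 in W22 under drought, 52.4 and 55.7 in the mutant without stress, and 5.10 and 6.21 in the mutant under drought. Its level in W22 hardly differed between the treatments (-0.24), and drought lowered it in the mutant to below all other groups (-3.26), with an interaction of -3.01 (SE 0.13, adjusted P = 2.82e-09). Of the 11 called genes 6 were in the weaker and 3 in the stronger class. Of the 34 lists described here 16 had 0 members called higher by edgeR, and over these lists, of 677 members, 26 had a higher interaction at an unadjusted P below 0.05, with 0 called higher by DESeq2 and 2 by limma.

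The JA signaling list, which holds JAZ (TIFY) repressors, MYC factors and the receptor, had 8 of 15 genes (53.3%) lower and 0 higher, with a median of -2.04. Matched by words, the list leaves out GRMZM2G036351, which is annotated with the ZIM motif and described below. This list was chosen with earlier results of these data known, and the study itself singled it out on these libraries, so its direction is not independent evidence. Its genes are short (median 1000 nt), and the length-adjusted fit called 7 lower, with a median of -1.82, as many as with library size alone. Drought raised 9 and lowered 2 of the 15 in W22, and raised 3 and lowered 5 in *zmnf-ya1*. The MYC4-like factor GRMZM2G049229, a bHLH activator of JA genes, had 18.5 and 16.4 CPM in W22 without stress, 94.3 and 84.4 in W22 under drought, 45.3 and 39.5 in the mutant without stress, and 39.3 and 40.4 in the mutant under drought. It rose by 2.36 in W22 and was not called in the mutant (-0.09), with an interaction of -2.45 (SE 0.12, adjusted P = 1.19e-08). GRMZM5G838098, which carries the tify and CCT motifs of JAZ proteins, had 3.14 and 4.48 CPM in W22 without stress, 8.07 and 7.18 in W22 under drought, 12.2 and 10.5 in the mutant without stress, and 2.46 and 3.46 in the mutant under drought. Here the 2 drought groups lay on opposite sides of their controls (interaction -2.94 (SE 0.26, adjusted P = 1.69e-06)), with a response of 1.00 in W22 at the fold limit and of -1.94 in the mutant.

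In 94 genes drought raised the level in W22 and lowered it in *zmnf-ya1*, and in 35 the reverse held. The 129 genes have no member in the JA lists, but 1 of the 5 named by size among genes of at least 20 CPM is annotated with the ZIM motif, another name of the tify motif. This gene, GRMZM2G036351, had 11.4 and 11.6 CPM in W22 without stress, 52.5 and 46.5 in W22 under drought, 71.0 and 60.3 in the mutant without stress, and 30.6 and 26.2 in the mutant under drought, and its response was 2.10 in W22 and -1.21 in the mutant (interaction -3.31 (SE 0.14, adjusted P = 2.45e-09)). Deoxyxylulose synthase 2 (GRMZM2G493395), an enzyme of the first step of plastid isoprenoid synthesis, had 33.8 and 33.6 CPM in W22 without stress, 314 and 309 in W22 under drought, 152 and 149 in the mutant without stress, and 43.4 and 45.2 in the mutant under drought. The replicates of each group were close, and the order of the genotypes was opposite in the 2 treatments: the mutant was above W22 without stress and below it under drought, with log2 differences of 2.16 and -2.81. Its interaction of -4.97 (SE 0.08, adjusted P = 6.24e-13) was called in all settings tried. A bHLH transcription factor annotated as partial, GRMZM2G042895, had the same shape, with 10.6 and 11.7 CPM in W22 without stress, 126 and 122 in W22 under drought, 61.5 and 62.0 in the mutant without stress, and 27.3 and 26.5 in the mutant under drought. Drought changed it by 3.48 in W22 and -1.20 in the mutant (interaction -4.68 (SE 0.10, adjusted P = 3.52e-12)). A protein similar to the stem 28 kDa glycoprotein, which in soybean is a vegetative storage protein, had 0.593 and 0.550 CPM in W22 without stress, 9.33 and 9.91 in W22 under drought, 72.6 and 68.8 in the mutant without stress, and 7.70 and 8.67 in the mutant under drought (GRMZM2G001508). Both drought groups were alike and both unstressed groups were not, with an interaction of -7.17 (SE 0.18, adjusted P = 1.84e-11).

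One of the 5 reversed in the other direction. The gene annotated as subunit 2 of the plastid NAD(P)H-quinone oxidoreductase (GRMZM2G474534), part of the complex that feeds electrons back into the photosynthetic chain, had 59.4 and 66.3 CPM in W22 without stress, 5.67 and 6.62 in W22 under drought, 4.32 and 3.53 in the mutant without stress, and 14.3 and 6.11 in the mutant under drought. It was high in unstressed W22 alone, and the drought libraries of the mutant differed by more than a factor of 2, with an interaction of 4.74 (SE 0.39, adjusted P = 1.02e-06). Several genes carry this annotation, and reads that fit more than 1 of them were divided by the counting program, so its own level is uncertain. In a pathway list, the flavonol synthase-like gene GRMZM2G117246 was reversed as well, with 1.61 and 1.90 CPM in W22 without stress, 15.5 and 15.0 in W22 under drought, 6.19 and 6.36 in the mutant without stress, and 2.27 and 2.09 in the mutant under drought and an interaction of -4.64 (SE 0.20, adjusted P = 2.26e-09).

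**Figure D4:**
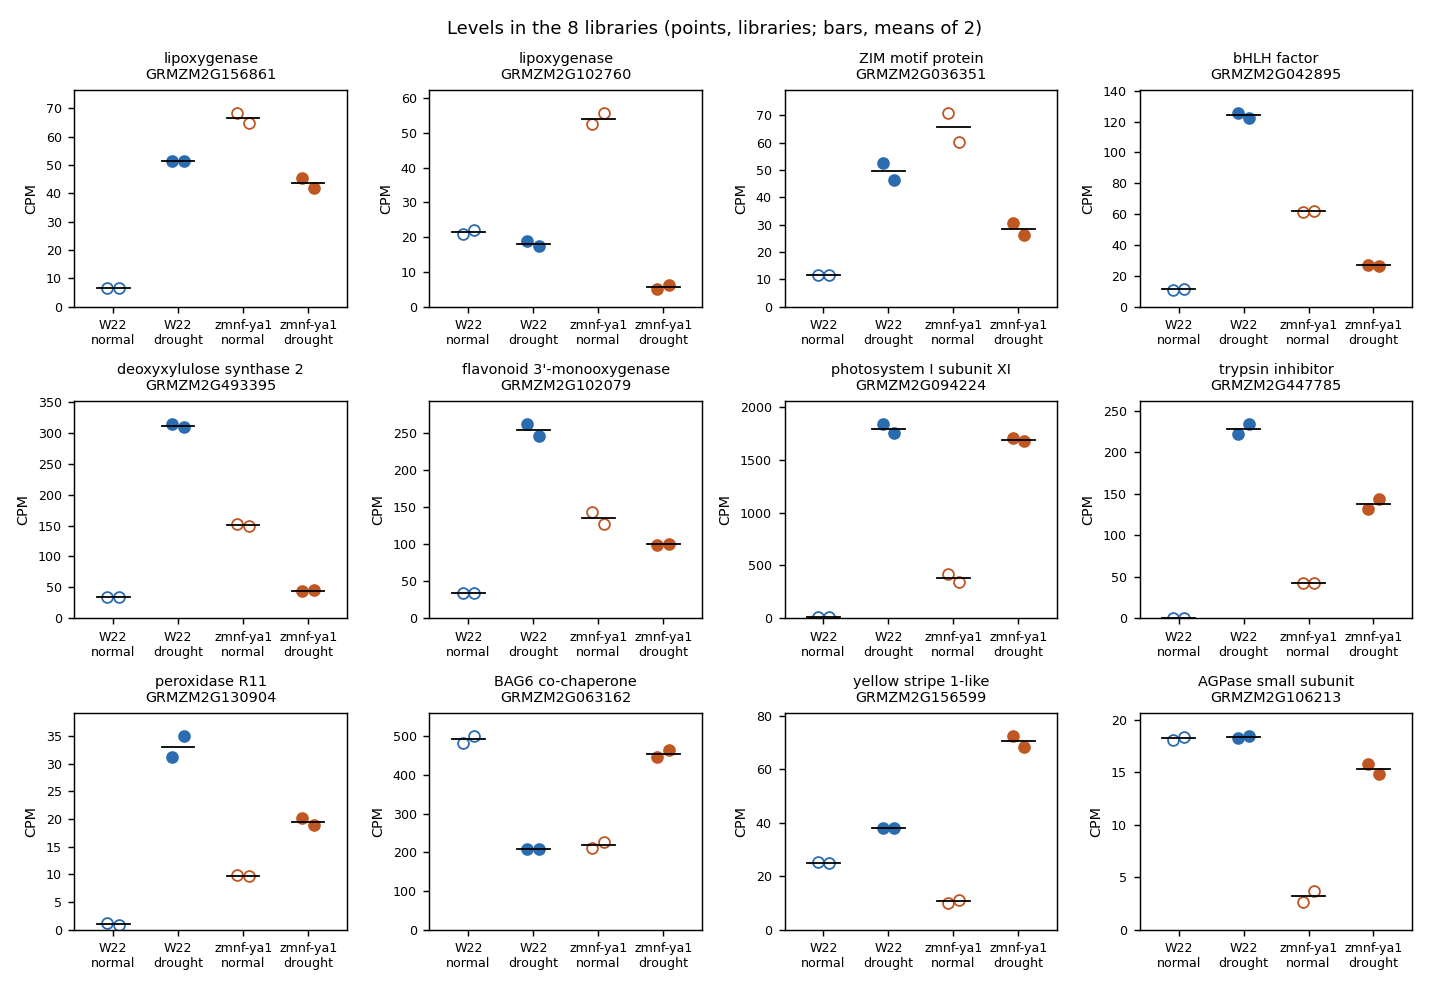
Level in CPM (y axes from 0) of 12 named genes in each of the 8 libraries (points; W22 blue, *zmnf-ya1* orange, open normal, filled drought) with the mean of each pair (bar). Deoxyxylulose synthase 2 runs from 33.8 and 33.6 in unstressed W22 to 314 and 309 under drought, and from 152 and 149 down to 43.4 and 45.2 in *zmnf-ya1*.

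The lowest interactions of described genes with at least 20 CPM on average belonged to genes whose level was lowest in unstressed W22. Subunit XI of photosystem I (GRMZM2G094224), a membrane subunit that in cyanobacteria holds the trimers of that photosystem together, had 7.54 and 6.47 CPM in W22 without stress, 1834 and 1751 in W22 under drought, 417 and 347 in the mutant without stress, and 1705 and 1676 in the mutant under drought. The drought groups of both genotypes were alike (genotype difference -0.08), and unstressed *zmnf-ya1* lay between them and unstressed W22, with a response of 2.15 in the mutant and an interaction of -5.85 (SE 0.13, adjusted P = 4.34e-12). A Bowman-Birk type trypsin inhibitor (GRMZM2G447785), of a family that blocks digestive proteases of insects, had 0.763 and 0.761 CPM in W22 without stress, 222 and 233.9 in W22 under drought, 42.4 and 42.0 in the mutant without stress, and 132 and 144 in the mutant under drought, with an interaction of -6.51 (SE 0.14, adjusted P = 4.34e-12). An EF hand protein (GRMZM2G436947), of a family that binds calcium, had 0.297 and 0.211 CPM in W22 without stress, 69.7 and 69.1 in W22 under drought, 17.3 and 17.1 in the mutant without stress, and 47.1 and 49.9 in the mutant under drought, with an interaction of -6.57 (SE 0.19, adjusted P = 4.39e-11). A dnaJ co-chaperone (GRMZM2G433854) had 0 counts in both W22 libraries without stress, then 43.9 and 44.6 CPM in W22 under drought, 0.852 and 1.66 in the mutant without stress, and 44.0 and 45.2 in the mutant under drought. This gene was low in both unstressed groups. Against a floor of 3 counts per library it was at least 349-fold higher in drought-stressed than in unstressed W22, and it was 35.5-fold higher in drought-stressed than in unstressed *zmnf-ya1*. For a second dnaJ gene with 0 counts there (GRMZM2G029079) the folds were at least 86.8 in W22 and 4.81 in the mutant.

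Genes nearly silent in 1 group alone were counted after these levels had been seen. The rule was 3 counts or fewer in each of a group's libraries and 2 CPM or more in each of the 6 others, by which 13 genes qualified in unstressed W22, 1 in unstressed *zmnf-ya1*, and 0 in either drought group. Of the 13, 7 had 0 counts in both unstressed W22 libraries. All 13 were called lower, a direction the rule itself favors, since it takes genes near 0 in unstressed W22 and present elsewhere. Whether the unstressed W22 plants were of the same seed stock as the other W22 plants was not tested, and a difference between plants and a response to drought cannot be told apart in these genes. Their W22 drought levels were at least 18.9-fold to at least 517-fold above the floor, while the mutant's ratio of drought to normal ran from 0.884 to 18.8.

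Light harvesting and photosystem genes were called in the lower direction, in a number that depends on the scaling. Among 55 genes of light harvesting and the photosystems 18 (32.7%) were called lower and 0 higher, with a median of -0.90, which was -0.77 length-adjusted, where 14 were lower. With library size alone the median was -0.53, and 4 (against 5.29% of all genes) were lower and 2 higher. The summed level was 102019.7 and 101472 CPM in W22 without stress, 135445 and 134502 in W22 under drought, 194771 and 174121 in the mutant without stress, and 128802 and 130288 in the mutant under drought. Under drought the sum was higher in W22 and lower in the mutant, and unstressed *zmnf-ya1* was the highest group. Only 3 members were called as drought-induced and 5 as repressed in W22, and 10 of the 18 were called for drought in neither genotype. The second member named, an 11 kD protein of photosystem II (GRMZM2G005984), had 223 and 227 CPM in W22 without stress, 447 and 429 in W22 under drought, 642 and 585 in the mutant without stress, and 358 and 361 in the mutant under drought and an interaction of -1.73 (SE 0.08, adjusted P = 6.15e-09). Chlorophyll synthesis had 3 of 14 genes lower and 1 higher (median -0.62), and 0 lower and 1 higher by edgeR with library size alone. Protochlorophyllide reductase, which makes chlorophyllide in the light, was lower in 2 copies, GRMZM2G084958 at -1.20 and GRMZM2G073351 at -1.11. Neither stayed past the fold limit with library size alone, at -0.82 and -0.74. Uroporphyrinogen III methyltransferase (GRMZM2G105604), which takes the tetrapyrrole path toward siroheme, was higher at 1.17 (SE 0.09, adjusted P = 7.97e-07), with 50.7 and 50.2 CPM in unstressed W22 and 23.5 and 25.8 in unstressed *zmnf-ya1*.

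The C4 and Calvin cycle list moved little, with 3 of 36 genes lower, 1 higher and a median of -0.19, which was 0.18 with library size alone, where 2 were lower and 3 higher. Rubisco large subunit (GRMZM2G308907) had 126 and 191 CPM in W22 without stress, 125 and 207 in W22 under drought, 615 and 484 in the mutant without stress, and 95.2 and 194 in the mutant under drought. Its replicates were as far apart as 95.2 and 194 CPM, and the gene resembles the plastid's own copy, so its interaction of -1.99 (SE 0.40, adjusted P = 0.00156) is uncertain. A carbonic anhydrase of low level (GRMZM2G087259, 5.59 to 19.9 CPM) was lower at -1.08, and at -0.97 without unstressed *zmnf-ya1* replicate 1. Enzymes of this kind supply bicarbonate to the C4 cycle. The most abundant carbonic anhydrase among the mesophyll markers (GRMZM2G348512, 714 to 1005 CPM) was not called, at -0.35. A phosphoenolpyruvate carboxylase outside the abundant C4 form (GRMZM2G069542) was higher at 1.03, at 0.98 without W22 drought replicate 1, at 0.99 without *zmnf-ya1* normal replicate 1, and at 0.36 length-adjusted. Of the 9 mesophyll markers 2 were called, both carbonic anhydrases and the 2 with the lowest levels. Markers of the bundle sheath ran from -0.74 to 0.45 with no call in 5 genes by edgeR. Of chlorophyll breakdown and senescence genes 2 of 17 were lower, with a median of -0.29 that was 0.09 with library size alone. Stay-green protein 1 (GRMZM2G103881), which removes magnesium from chlorophyll as leaves age, had 27.8 and 28.1 CPM in W22 without stress, 73.5 and 70.0 in W22 under drought, 25.2 and 19.9 in the mutant without stress, and 15.5 and 15.7 in the mutant under drought. Here the 2 unstressed groups were near each other, and the gap opened under drought (interaction -1.89 (SE 0.13, adjusted P = 2.31e-07)). Senescence-associated protein DH (GRMZM2G041175) was induced in W22 by 2.43 and changed by 0.55 in the mutant, below the fold limit.

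Calls among detoxification genes were of a lower interaction. Of 43 glutathione S-transferases, which join glutathione to toxic compounds, 18 (41.9%) were called lower and 0 higher, with a median of -1.06. With library size alone 7 were lower, with a median of -0.69. Drought raised 20 and lowered 5 of them in W22, and raised 8 and lowered 11 in *zmnf-ya1*, and the 18 fell into 9 weaker, 5 stronger and 2 reversed responses and 2 called in neither genotype. GRMZM2G146475 had 0.763 and 0.592 CPM in W22 without stress, 18.6 and 18.4 in W22 under drought, 6.14 and 5.45 in the mutant without stress, and 18.1 and 19.7 in the mutant under drought, with an interaction of -3.05 (SE 0.22, adjusted P = 2.68e-07). Its drought levels were alike in both genotypes. Glutathione transferase 23 (GRMZM2G416632) had 15.9 and 15.8 CPM in W22 without stress, 15.1 and 16.3 in W22 under drought, 29.0 and 25.4 in the mutant without stress, and 5.10 and 6.02 in the mutant under drought. The response was -0.01 in W22 and -2.29 in the mutant, whose drought libraries were the lowest (interaction -2.27 (SE 0.15, adjusted P = 1.21e-07)). Class III peroxidases, which act in the cell wall, had 9 of 32 genes (28.1%) lower and 0 higher, and 7 and 1 with library size alone. Peroxidase R11 (GRMZM2G130904) had 1.14 and 0.930 CPM in W22 without stress, 31.1 and 35.0 in W22 under drought, 9.83 and 9.73 in the mutant without stress, and 20.2 and 18.9 in the mutant under drought, with an interaction of -3.99 (SE 0.18, adjusted P = 4.94e-09). Peroxidase 12 (GRMZM2G103342) was induced in both genotypes, by 3.63 in W22 and 1.26 in the mutant. Antioxidant enzymes had 3 of 22 genes lower (13.6%), and 1 with library size alone. They included peroxiredoxin-5 (GRMZM2G036921, -1.25) and the chloroplast copper zinc superoxide dismutase (GRMZM2G106928, -1.18), and both were under the fold limit with library size alone (-0.88 and -0.81).

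Among defense genes the balance of calls depends on the list and the scaling. Chitinases, glucanases and other pathogenesis-related proteins, which attack microbial walls, had 22 of 66 genes (33.3%) lower and 1 higher, with a median of -0.79 (22 lower when length-adjusted, and with library size alone 12 lower, 3 higher and a median of -0.43). Of the 22 and the 1, 10 were weaker, 11 stronger and 1 reversed. Endochitinase PR4 (GRMZM2G129189) had 3.35 and 3.17 CPM in W22 without stress, 10.6 and 11.1 in W22 under drought, 14.7 and 11.8 in the mutant without stress, and 8.51 and 6.73 in the mutant under drought, with an interaction of -2.53 (SE 0.20, adjusted P = 8.56e-07). A glucan endo-1,3-beta-glucosidase 13-like gene (GRMZM2G431039) had 184 and 175 CPM in W22 without stress, 39.3 and 42.2 in W22 under drought, 157 and 148 in the mutant without stress, and 7.28 and 6.59 in the mutant under drought. Both genotypes lowered it, the mutant more (-4.46 against -2.14), and the unstressed groups differed little (interaction -2.32 (SE 0.11, adjusted P = 6.09e-09)). WRKY factors, many of which act in defense, had 14 of 68 genes (20.6%) lower and 1 higher, and 7 and 6 with library size alone. Those called lower include GRMZM2G120320 (-1.76) and GRMZM2G158328 (-1.42). Receptor-like kinases and disease resistance proteins divided into 27 higher (8.57%) and 31 lower (9.84%) of 315, against 5.12% and 9.02% of all genes. Their median length of 2566 nt is well above that of all genes, and length-adjusted 10 were higher and 59 lower, with the median moving from 0.03 to -0.38. Scaled by library size alone, 62 were higher and 15 lower, with a median of 0.40. The disease resistance protein RGA1 (GRMZM2G356817) had 31.8 and 32.7 CPM in W22 without stress, 2.39 and 2.83 in W22 under drought, 5.85 and 8.40 in the mutant without stress, and 2.46 and 3.37 in the mutant under drought, a weaker repression in the mutant with an interaction of 2.33 (SE 0.27, adjusted P = 1.85e-05) that stayed called at 1.93 length-adjusted. The receptor-like kinase GRMZM2G168917 had 9.83 and 8.84 CPM in W22 without stress, 49.3 and 46.9 in W22 under drought, 29.8 and 23.3 in the mutant without stress, and 32.1 and 33.9 in the mutant under drought, a weaker induction (-2.04 (SE 0.15, adjusted P = 3.20e-07)), and the PERK7 kinase GRMZM2G374074 was lower at -1.57.

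**Figure D5:**
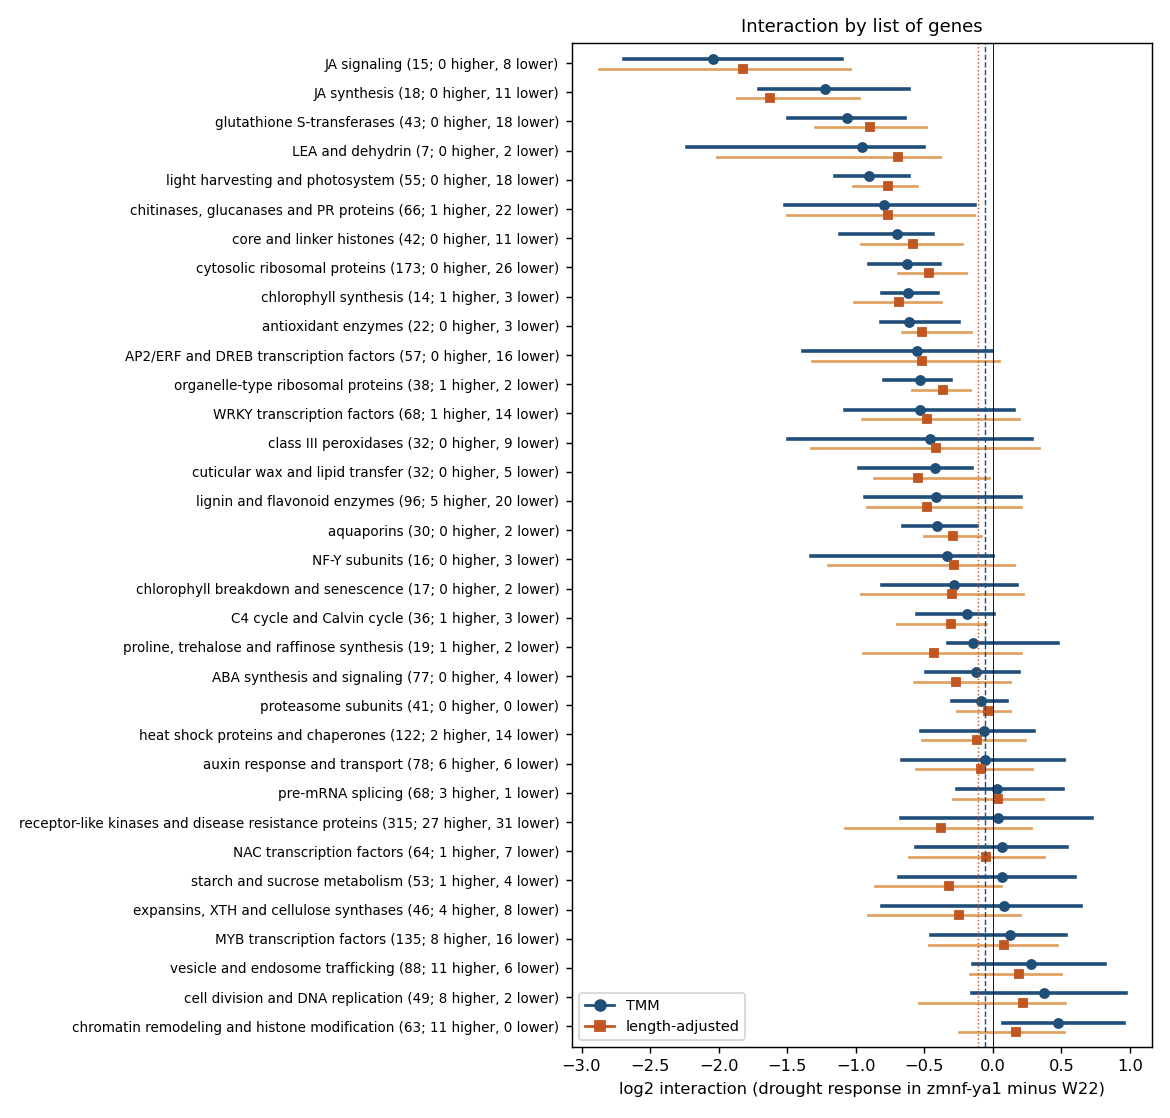
Median (points) and range of the middle 50% of members (bars) of the log2 interaction for 34 lists of genes, with TMM (blue) and length-adjusted (orange); labels give the members tested and those called higher and lower, and the dashed and dotted lines mark the medians of all genes. JA signaling (-2.04), JA synthesis (-1.23), and glutathione S-transferases (-1.06) have the lowest medians, and chromatin genes the highest at 0.47.

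Among transcription factors the AP2/ERF and DREB family, which holds regulators of ethylene and dehydration responses, had 16 of 57 genes (28.1%) lower and 0 higher, with 15 lower when length-adjusted, 13 with library size alone and a median of -0.56. Ethylene-responsive factor 4 (GRMZM2G089995) had 8.603 and 6.77 CPM in W22 without stress, 15.2 and 13.3 in W22 under drought, 35.1 and 26.6 in the mutant without stress, and 14.8 and 13.3 in the mutant under drought. Its mutant fell by 1.13 under drought where W22 changed by 0.89 (interaction -2.02 (SE 0.20, adjusted P = 5.86e-06)). Ethylene-responsive factor 8-like (GRMZM2G020150) was lower at -1.38. NAC factors had 7 of 64 genes lower (10.9%, against 9.02% of all genes) and 1 higher, and 5 and 5 with library size alone. GRMZM2G336533 had 1.91 and 2.58 CPM in W22 without stress, 55.9 and 77.6 in W22 under drought, 2.50 and 3.64 in the mutant without stress, and 13.9 and 15.3 in the mutant under drought. Both genotypes induced it, by 4.89 and 2.24, and the unstressed groups were alike, so the interaction of -2.65 (SE 0.36, adjusted P = 7.07e-05) came with a lower drought level in the mutant. A second NAC gene, GRMZM2G180328, was repressed in the mutant by -2.50 and changed by -0.64 in W22. The member called higher, secondary wall NAC factor 4 (AC212859.3_FG008), was at 1.03 and was under the fold limit without W22 normal replicate 2 (0.85), W22 drought replicate 1 (0.86) or *zmnf-ya1* drought replicate 1 (0.95). MYB factors went both ways, with 16 of 135 lower (11.9%, against 9.02% of all genes) and 8 higher (5.93%, against 5.12%). With library size alone 10 were lower and 24 higher, where 5.29% and 12.7% of all genes were. MYB108-like (GRMZM2G131442) had 9.54 and 9.94 CPM in W22 without stress, 15.6 and 13.8 in W22 under drought, 23.6 and 21.9 in the mutant without stress, and 5.53 and 5.69 in the mutant under drought, and only the mutant lowered it past the limit (-2.02, interaction -2.62 (SE 0.14, adjusted P = 2.15e-08)). GRMZM2G051256 was lower at -1.54. Auxin response and transport genes had 6 of 78 lower and 6 higher (7.69% each, against 9.02% and 5.12% of all genes). With library size alone 4 were lower and 16 higher. The repressor IAA23 (GRMZM2G079200) was induced by 3.27 in W22 and 1.65 in the mutant. The auxin transport protein BIG (GRMZM2G312110), with a transcript of 8706 nt, was higher at 1.79 and at 0.26 length-adjusted. A short auxin-induced gene (AC217977.3_FG001) was lower at -1.17, and at -0.80 with library size alone and -0.92 length-adjusted.

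The classic drought lists had few calls, though the small LEA and dehydrin list had a low median. ABA synthesis and signaling, a list made up largely of protein phosphatases 2C, had 4 of 77 genes lower (5.19%) and 0 higher, below the background of 9.02%, and with library size alone 0 were lower and 4 higher by edgeR, with the median moving from -0.12 to 0.24. Phosphatase 2C 68 (GRMZM2G082487) was lower at -1.36, and at -0.99 with library size alone. LEA and dehydrin genes, which protect proteins as cells dry, had 2 of 7 lower (28.6%, against 9.02% of all genes). The median of this list was -0.96, with 6 members below 0. With library size alone 1 was lower and the median was -0.59. The LEA gene GRMZM2G000777 was -1.11, with 3.35 and 3.76 CPM in unstressed W22 against 7.75 to 10.05 CPM in the other 6 libraries, and it was under the fold limit without *zmnf-ya1* normal replicate 1 (-0.97). Aquaporins, the water channels of membranes, had 2 of 30 lower (6.67%), and 2 lower and 1 higher with library size alone. Aquaporin PIP2-4 (GRMZM2G154628) had 21.8 and 22.2 CPM in W22 without stress, 179 and 177 in W22 under drought, 47.5 and 42.0 in the mutant without stress, and 118 and 118 in the mutant under drought. Drought raised it in both genotypes, by 3.02 and 1.40, with an interaction of -1.62 (SE 0.10, adjusted P = 4.84e-08). For PIP2-6 (GRMZM2G047368) the level was 4.53 and 5.75 CPM in unstressed W22 and 15.99 to 18.7 CPM in all other libraries. Proline, trehalose and raffinose synthesis had 2 of 19 lower (10.5%, against 9.02% of all genes) and 1 higher, and 2 and 3 with library size alone. A trehalose phosphatase/synthase gene (GRMZM2G019183) had 10.4 and 10.6 CPM in W22 without stress, 42.5 and 47.4 in W22 under drought, 25.7 and 23.7 in the mutant without stress, and 23.6 and 24.2 in the mutant under drought, and its induction in W22 had no counterpart in the mutant (interaction -2.15 (SE 0.12, adjusted P = 2.56e-08), and -2.96 length-adjusted). A second gene of that family, GRMZM2G312521, was lower at -1.45. Heat shock proteins and chaperones had 14 of 122 lower (11.5%, against 9.02% of all genes) and 2 higher, with a median of -0.06. With library size alone the median was 0.31, near that of all genes, and 10 were lower and 6 higher.

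Phenylpropanoid and cell wall genes had calls in both directions. Lignin and flavonoid enzymes had 20 of 96 genes lower (20.8%) and 5 higher (5.21%), with a median of -0.41, and 13 and 7 with library size alone. The flavonoid 3'-monooxygenase-like gene GRMZM2G102079, of an enzyme that adds a hydroxyl to the flavonoid B ring, had 34.3 and 34.0 CPM in W22 without stress, 262 and 246 in W22 under drought, 143 and 128 in the mutant without stress, and 99.1 and 101 in the mutant under drought. W22 raised it by 2.90 and the mutant changed it by -0.44 (interaction -3.34 (SE 0.10, adjusted P = 4.66e-11)). The member named among those called higher, an anthocyanidin 3-O-glucosyltransferase (GRMZM2G135722), was at 1.05, and at 0.93 without *zmnf-ya1* normal replicate 2 and 0.92 length-adjusted. Wax and lipid transfer genes had 5 of 32 lower (15.6%) and 0 higher, and 3 and 0 with library size alone. The lipid transfer protein GRMZM2G387360 had 1.40 and 1.65 CPM in W22 without stress, 35.2 and 28.6 in W22 under drought, 3.12 and 2.30 in the mutant without stress, and 4.96 and 5.21 in the mutant under drought. It stood out in drought-stressed W22 alone (interaction -3.47 (SE 0.29, adjusted P = 1.11e-06)). Another, GRMZM2G137329, had 725 and 789 CPM in W22 without stress, 371 and 394 in W22 under drought, 1958 and 1791 in the mutant without stress, and 294 and 315 in the mutant under drought. Drought lowered it in the mutant (-2.62), and the change in W22 was -0.98, short of the fold limit. Expansins, XTH enzymes and cellulose synthases, which loosen or build walls, had 8 of 46 lower (17.4%) and 4 higher (8.70%), with a median of 0.08 and 22 members below 0. Length-adjusted 7 were lower and 0 higher by edgeR, and with library size alone 4 were lower and 9 higher, with a median of 0.45. The expansin-like genes were lower in a weaker induction (GRMZM2G026147, -2.06) and in a stronger repression (GRMZM2G127072, -1.88), while a cellulose synthase of 4225 nt (GRMZM2G028353) was higher at 1.25 and at 0.37 length-adjusted.

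In starch and sucrose metabolism 4 of 53 genes were lower (7.55%) and 1 was higher, and 10 and 1 when length-adjusted. With library size alone 3 were lower and 10 higher, with a median of 0.44. Beta-amylase (GRMZM2G082034), which releases maltose from starch, had 42.7 and 47.4 CPM in W22 without stress, 53.6 and 46.3 in W22 under drought, 95.2 and 81.0 in the mutant without stress, and 27.8 and 24.7 in the mutant under drought. Only the mutant lowered it (-1.75, interaction -1.89 (SE 0.14, adjusted P = 3.49e-07)). Sucrose-phosphatase 2 (GRMZM2G097641), the last enzyme of sucrose synthesis, was induced by 2.50 in W22 and changed by 0.25 in the mutant. The small subunit of ADP-glucose pyrophosphorylase (GRMZM2G106213), the entry enzyme of starch synthesis, was the member called higher, with 18.1 and 18.4 CPM in W22 without stress, 18.2 and 18.4 in W22 under drought, 2.67 and 3.69 in the mutant without stress, and 15.7 and 14.8 in the mutant under drought. It was low in unstressed *zmnf-ya1* alone (interaction 2.25 (SE 0.16, adjusted P = 2.85e-07), and 2.05 length-adjusted).

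For the short genes of translation and of histones the calls changed with the length adjustment. Cytosolic ribosomal proteins (median 955 nt) had 26 of 173 genes lower (15.0%) and 0 higher, 16 and 1 when length-adjusted, and 6 and 1 with library size alone, against 14.7% and 14.8% lower among all genes of the 2 shortest length bins. Their interaction was below 0 in 160 of 173, with a median of -0.63 that was -0.26 with library size alone. Drought raised 82 of them in W22 and 17 in *zmnf-ya1*. The summed level was 2343 and 2367 CPM in W22 without stress, 4569 and 4719 in W22 under drought, 3818 and 3750.0 in the mutant without stress, and 4820.2 and 4916 in the mutant under drought. The members named, 60S L37-3 (GRMZM6G578655, -1.54) and 40S S9 (GRMZM2G064640, -1.36), were called for drought in neither genotype, and S9 was at -0.99 with library size alone. Organelle-type ribosomal proteins had 2 of 38 lower and 1 higher, with a median of -0.53, and 0 lower and 2 higher by edgeR with library size alone. The member called higher, annotated as 50S L2 (GRMZM2G474459), has a transcript of 9064 nt and was -0.30 length-adjusted. Core and linker histones (median 963 nt), which dividing cells make in bulk, had 11 of 42 genes lower (26.2%) and 0 higher, with 7 lower when length-adjusted and 5 with library size alone. The summed level was 1627 and 1599.8 CPM in W22 without stress, 1766 and 1743 in W22 under drought, 2823 and 2528 in the mutant without stress, and 1795 and 1760.5 in the mutant under drought, highest in unstressed *zmnf-ya1*. Both histone H4 genes named, GRMZM2G072855 (-1.54) and GRMZM2G073275 (-1.44), belong to a family of near-identical copies, so the split of reads between them is uncertain.

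Calls for the long genes of cell division and chromatin changed with the length adjustment too. Of 49 cell division and DNA replication genes (median 2232 nt) 8 were higher (16.3%) and 2 lower, whereas 3 were lower and 0 higher by edgeR when length-adjusted, and 13 were higher and 0 lower with library size alone. The summed level of this list was between 491 and 536 CPM in all 8 libraries. The small chain of ribonucleotide reductase (GRMZM2G060163), which makes DNA precursors, had 17.3 and 15.4 CPM in W22 without stress, 7.55 and 7.09 in W22 under drought, 15.3 and 15.6 in the mutant without stress, and 15.8 and 15.4 in the mutant under drought. Drought-stressed W22 was the low group (interaction 1.18 (SE 0.13, adjusted P = 1.55e-05), and 0.99 length-adjusted). Chromatin remodeling and histone modification genes (median 2310 nt) had 11 of 63 higher (17.5%) and 0 lower, with a median of 0.47. The same count was 22 with library size alone. Length-adjusted, 1 was higher and 1 lower and the median was 0.17, and 8 of the 11 were called for drought in neither genotype. An SNF2 helicase (GRMZM2G428242), of the motors that move nucleosomes, had 10.04 and 10.95 CPM in W22 without stress, 5.06 and 4.86 in W22 under drought, 2.50 and 2.99 in the mutant without stress, and 4.96 and 4.88 in the mutant under drought. Its interaction was 1.92 (SE 0.19, adjusted P = 6.14e-06), and 0.80 length-adjusted, for a transcript of 5531 nt. Vesicle and endosome trafficking genes (median 1695 nt) had 11 of 88 higher (12.5%) and 6 lower (6.82%). These counts changed little when length-adjusted, to 9 and 5, against 2.85% and 8.80% of all genes. With library size alone they were 24 and 2. Clathrin heavy chain (GRMZM2G057576, 5703 nt), the coat of endocytic vesicles, was higher at 1.41 and at 0.26 length-adjusted, and syntaxin 121 (GRMZM2G414540), a fusion protein of the plasma membrane, was lower at -1.51 and at -1.45 length-adjusted. Splicing genes had 3 of 68 higher and 1 lower, and 10 and 0 with library size alone. The 2 copies of splicing factor 8 named, GRMZM2G099355 and GRMZM2G433801, with transcripts of 7504 and 7364 nt, were higher at 1.19 and 1.21 and changed sign to -0.22 and -0.18 when length-adjusted. Of 41 proteasome subunits 0 were called by edgeR in either direction, and 0 by DESeq2, with 17 (6 higher and 11 lower) at an unadjusted P below 0.05 and a median of -0.09 that was 0.28 with library size alone.

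The highest interactions of described genes were smaller than the lowest. BAG6 (GRMZM2G063162), a co-chaperone regulator of heat shock protein 70, had 482 and 500.2 CPM in W22 without stress, 209 and 209 in W22 under drought, 209.8 and 227 in the mutant without stress, and 447 and 463 in the mutant under drought. The 2 treatments exchanged places between the genotypes, with responses of -1.23 in W22 and 1.06 in *zmnf-ya1* and an interaction of 2.29 (SE 0.08, adjusted P = 4.08e-10), at 1.36 length-adjusted for its 4493 nt. GRMZM2G156599 is annotated as yellow stripe 1, the maize transporter that takes up iron bound to phytosiderophores. It had 25.1 and 24.9 CPM in W22 without stress, 38.1 and 38.2 in W22 under drought, 9.999 and 11.1 in the mutant without stress, and 72.4 and 68.3 in the mutant under drought. Drought raised it by 2.73 in the mutant, and its change in W22 was 0.61, below the fold limit (interaction 2.12 (SE 0.11, adjusted P = 9.86e-09)). A SANT/MYB protein (GRMZM2G049378) had 35.2 and 39.2 CPM in W22 without stress, 34.6 and 38.8 in W22 under drought, 9.03 and 10.1 in the mutant without stress, and 32.3 and 35.0 in the mutant under drought. It was low in unstressed *zmnf-ya1* and alike in the other 3 groups (interaction 1.83 (SE 0.13, adjusted P = 3.03e-07), and 2.10 length-adjusted). Subunit K of the plastid NADH-plastoquinone oxidoreductase (GRMZM5G800980), the fifth with GRMZM2G474534 above, had 129.6 and 98.0 CPM in W22 without stress, 39.8 and 11.4 in W22 under drought, 40.1 and 28.8 in the mutant without stress, and 69.8 and 22.2 in the mutant under drought. Apart from unstressed W22 the groups overlapped, the interaction was 2.58 (SE 0.65, adjusted P = 0.00699), and without *zmnf-ya1* drought replicate 1 it was 1.53 and not called.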

How the data were processed

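The 8 libraries of W22 and *zmnf-ya1* were read from the deposited tables, and the other 16 were not used here. The authors filtered BGISEQ500 reads with SOAPnuke, aligned them to maize B73 V3 gene models by Bowtie2, and deposited RSEM expected counts, in which reads that fit several genes are divided, together with FPKM per gene. Expected counts were rounded, and a gene missing from a library was taken as 0, since genes under 0.01 FPKM were not listed. Counts were fitted with edgeR 4.0.16 (R 4.3.3) on 4 group means after its filter on low counts and TMM. P values were adjusted by Benjamini and Hochberg over 24159 genes.

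Levels rest on 20863136 to 21178202 counts per library, and floors of 3 counts cover counting error only, as the reads carry no molecular identifiers. Replicates differed by more than sampling noise (chi-squared per degree of freedom 2.19 to 5.08). Lists were matched to the words of the deposited descriptions. The members, lists and tests were chosen with earlier results of these data known. Named genes are the NF-Y subunits, the 2 members of each list with the largest called interaction in its main direction and the 1 in the other (mean of at least 5 CPM), and the 5 highest, 5 lowest and 5 reversed genes (at least 20 CPM). No per-sample column was left unused (0). The alternatives were DESeq2 1.42.0, RLE factors, library size alone, no filter, other limits, limma 3.58.1 on log2(FPKM + 1), a replicate block, each library left out, and a length-adjusted fit added after the data had been seen. Procedures were tested on simulated data. Figures were drawn with Python 3.11.15 and matplotlib 3.10.9. Promoter sequences and the CCAAT element were not analysed here.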

Additional observations from a re-analysis of the deposited data

Results flagged for a closer look

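The difference in drought response between the genotypes was tested by the interaction for every gene. The interaction was called higher in 1237 genes and lower in 2180. In 129 genes the drought calls of the genotypes were of opposite sign. The 5 of these with the largest interaction at 20 CPM or more were a stem 28 kDa glycoprotein-like gene (GRMZM2G001508, -7.17), deoxyxylulose synthase 2 (GRMZM2G493395, -4.97), a bHLH factor (GRMZM2G042895, -4.68), a ZIM motif protein (GRMZM2G036351, -3.31) and a plastid NAD(P)H-quinone oxidoreductase subunit (GRMZM2G474534, 4.74), all on the log2 scale. With 2 libraries per group no test for an outlying library was possible.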

How the results depend on the processing

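Replicate numbers did not pair the samples: deviations of same-numbered libraries had correlations of 0.03 to 0.097 across genes, and a fit with a replicate block called 1240 genes higher and 2182 lower in the interaction and 1718 weaker, 807 stronger and 132 reversed responses. RLE factors and no filter on low counts kept every count within 1.5 times. DESeq2 gave 83 reversed genes and 121 higher in the mutant under drought. Library size alone gave 3057 higher and 1278 lower interactions, 1242 called for drought in neither genotype, and 985 higher and 3914 lower in the unstressed mutant. An adjusted P of at most 0.001 gave 545 higher and 1278 lower interactions, 949 weaker, 375 stronger, 54 reversed and 445 neither, and genotype differences of 1321 higher and 931 lower without stress and 73 and 324 under drought. With no fold limit there were 3698 higher and 5424 lower interactions, 5247 weaker, 2368 stronger, 1379 reversed and 128 neither, drought calls of 8410 and 8160 in W22 and 6780 and 7162 in *zmnf-ya1*, and genotype differences of 7293 and 5649 without stress and 2296 and 2365 under drought. limma on log2(FPKM + 1) gave 1062 higher and 733 lower interactions, so that, as with library size alone, more genes were higher than lower, 806 weaker, 283 stronger and 21 reversed, drought calls of 2072 and 2050 in W22 and 1662 and 1302 in *zmnf-ya1*, and genotype differences of 343 and 1024 without stress and 49 and 269 under drought. The length-adjusted fit gave 689 higher interactions and 477 called in neither genotype. The causes were not tested, apart from limits that by their construction pass fewer or more genes.

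With each library left out in turn the interaction had 1075 to 1440 genes higher and 1767 to 2315 lower, with 1445 to 1740 weaker, 678 to 972 stronger, 103 to 142 reversed and 616 to 901 neither. Drought calls ran from 4101 to 4371 higher and 3398 to 3697 lower in W22 and from 2746 to 3002 and 3016 to 3313 in *zmnf-ya1*, and genotype differences from 1544 to 2315 and 1358 to 1848 without stress and 151 to 202 and 474 to 594 under drought. In each setting 0 of the 3417 interaction calls were called in the opposite direction. Among 89 named genes 87 kept their call or its absence with DESeq2, 75 with library size alone, 70 with limma and 69 length-adjusted, where GRMZM2G099355 (-0.22), GRMZM2G433801 (-0.18) and GRMZM2G474459 (-0.30) changed sign. With 2 libraries per group the spread of a single gene is poorly known, and a low gene such as *ZmNF-YA7*, at 1.04 to 2.16 CPM, could not show a small difference at this depth. The planned count of promoters with the CCAAT element was not run.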

Other observations

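The genes almost without counts in unstressed W22 include some with no function in their description. GRMZM2G035726 had 0 and 3 counts in W22 without stress, 1372 and 1449 in W22 under drought, 44 and 95 in the mutant without stress, and 1462 and 1547 in the mutant under drought. GRMZM2G422175 had 0 in both W22 libraries without stress, 522 and 523 in W22 under drought, 43 and 49 in the mutant without stress, and 480 and 523 in the mutant under drought. An epimerase/dehydratase gene (GRMZM2G052357) had 0 in both, then 416 and 351, 63 and 50, and 450 and 410 counts in the same order of groups. In each of these 3 genes the mutant without stress held counts that unstressed W22 lacked, and both drought groups were near each other. These genes were chosen after their values had been seen. The single gene of this kind in unstressed *zmnf-ya1*, a plastid ribosomal protein L2 gene (GRMZM2G108251), had 218 and 166 counts in unstressed W22 and 0 in both unstressed mutant libraries.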
